A study of Bos taurus with 20 samples.

Results

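The enzymes that break down glycogen and carry glucose phosphate to pyruvate and lactate were followed in beef muscle by 10 genes, PYGM, PGM1, PFKM, ALDOA, GAPDH, PGAM2, ENO3, PKM, LDHA and LDHB. They are 10 of the 9156 genes that the array's annotation names. Every probe set that the platform annotation assigns to exactly 1 of these symbols was taken, which gave 18 of the 24128 probe sets on the array. Of these 18, 3 are GAPDH controls of the array itself and were used only as a check of RNA quality. The other 15 probe sets, 3 for PFKM, 3 for LDHA, 2 for PGM1 and 1 for each of the other 7 genes, all passed the filter on dim signals. The rule that picks them uses symbols and no measured value.

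The samples were Musculus longissimus dorsi, the long back muscle, of 20 crossbred bulls (Holstein x Charolais F2) measured on a cattle Affymetrix GeneChip with 1 array per animal. Of the bulls, 10 were labelled high and 10 low for intramuscular fat (IMF), the fat deposited within the muscle, and the study set out to compare these groups. Sample titles carry an animal number that has an S in 10 bulls and none in the other 10, with 5 high IMF and 5 low IMF bulls of each kind. No label explains the S. It is called the title series here and treated as a possible batch, and whatever differs between the title series cannot be told apart from what the S marks. The labels give no age, feeding or slaughter data, and each p-value measures the spread between single animals.

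Glycogen phosphorylase releases glucose 1-phosphate from the glycogen store of the muscle fibre, and phosphoglucomutase turns it into glucose 6-phosphate, which enters glycolysis. Phosphofructokinase commits the sugar to glycolysis, aldolase splits it, and the lower enzymes yield ATP and pyruvate. Lactate dehydrogenase reduces pyruvate to lactate. Fast, glycolytic fibres rely on this route, and after slaughter it continues without oxygen and lowers the pH of meat. PYGM, PFKM, PGAM2 and ENO3 encode the muscle forms of their enzymes, LDHA encodes the lactate dehydrogenase subunit typical of fast muscle, and LDHB the subunit typical of heart and slow muscle.

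The tissue label matched its markers. All 5 measured general muscle markers, all 8 fast fibre markers and all 10 slow fibre markers on the array were above the filter, and none had a value of 0 in any bull. The median signal of an array lay between 51.6 and 67.6, with the lowest 2 values in high IMF replicates 6 and 9, both with S titles. Arrays of the same title series correlated with a median r of 0.959 (90 pairs), against 0.931 for arrays of different series (100 pairs), and no arrays were identical. All 18 hybridization controls, transcripts added during processing and foreign to the muscle, were lower in S arrays by 0.23 to 0.88 log2 units, and 13 of them did not overlap between the series. The 3′ to 5′ signal ratio of the GAPDH controls was 0.722 to 0.823 in S arrays and 0.729 to 0.878 in the others, and that of actin was 0.601 to 0.886 in S arrays and 0.771 to 1.004 in the others. The part of these technical differences in the results below was not tested. In whole muscle, fewer fibres of a type and less RNA per fibre cannot be told apart.

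Most of these enzymes ranked near the top of the array by mean intensity. The signals of PYGM, ALDOA, GAPDH, PGAM2 and ENO3, of the brightest PFKM probe set and of the brightest LDHA probe set were among the top 100 of 24016 probe sets by mean intensity. The mean intensity of GAPDH, the glyceraldehyde 3-phosphate dehydrogenase often used as a reference gene, ranked 8, and that of the brightest LDHA probe set ranked 9. The top 100 had mean intensities of 9471 to 18259. Single arrays recorded higher signals, since that of albumin, a liver transcript, reached 83307 in low IMF replicate 3 and 59753 in high IMF replicate 10. Ranks describe the position of a signal in the measured range only, since probe sets differ in how strongly they bind and the level of one gene cannot be read against another.

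Bright probe sets also varied little between bulls. The SD within a title series, in log2 units, was 0.03 for ALDOA, 0.04 for GAPDH, ENO3 and the brightest LDHA probe set, 0.07 for PGAM2, 0.08 for PYGM and 0.10 for the brightest PFKM probe set. The median over the top 100 probe sets was 0.10, against 0.25 over all 14409 tested probe sets. LDHB, at 0.27, and the dimmest LDHA probe set, at 0.43, had the widest spreads of the 15. Differences between the title series were also smaller among the brightest probe sets. The median size of such a difference was 0.16 log2 units over the top 100 probe sets and 0.42 over all tested ones. Whether a ceiling of the signal limits the differences of the brightest enzymes was not tested.

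**Figure D1:**
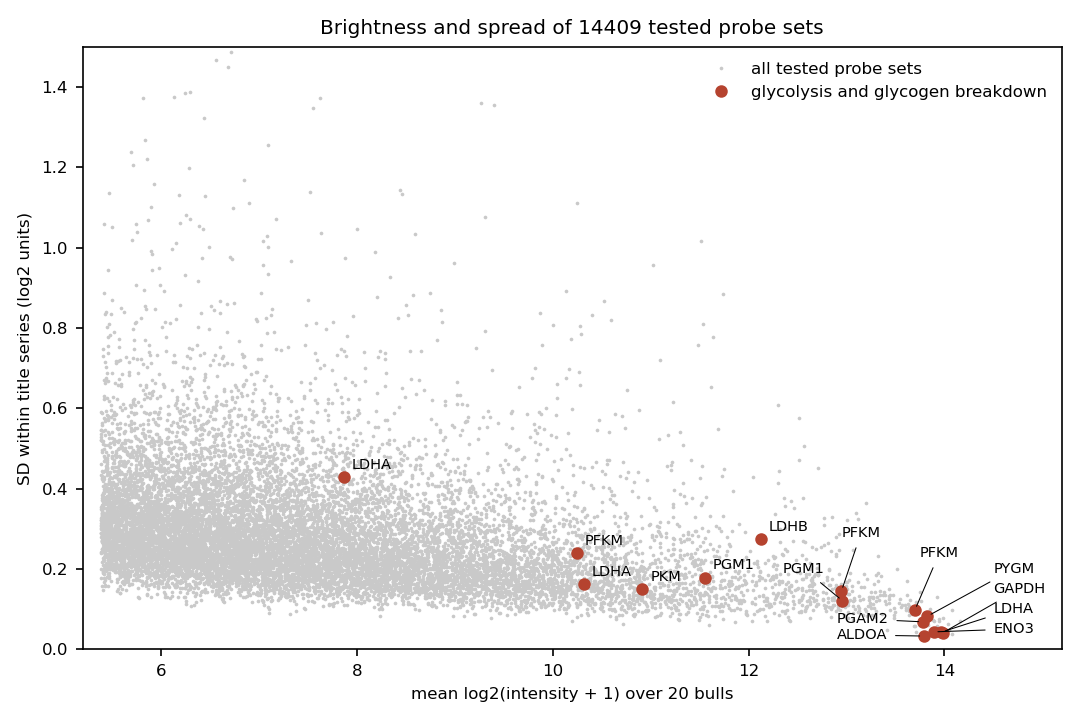
Mean log2(intensity + 1) over 20 bulls (x axis) against the SD within a title series in log2 units (y axis) for 14409 tested probe sets (grey; 35 lie above the axis limit) and the 15 probe sets of the pathway (red). The 7 brightest probe sets of the pathway sit at the lower right, with an SD of 0.03 to 0.10, while LDHB and the dimmest LDHA probe set lie higher.

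High and low IMF bulls were compared first, the question the study was designed for. None of the 15 probe sets of glycogen breakdown and glycolysis passed the test between high and low IMF muscle. Differences ran from -0.13 log2 units for the dimmest LDHA probe set to 0.07 for the LDHA probe set second in brightness, with 10 below 0 and 5 above 0. The median was -0.02, against -0.03 over all tested probe sets. Once each array was centred on its median, the median of the 15 was 0.02 and 10 lay above 0, so that the direction of these small differences followed the scaling. The limma fit called 0 of 15 at an adjusted p below 0.05, beside 0.0% of all 14409 probe sets, and the lowest adjusted p over all probe sets was 0.9997. An unadjusted p below 0.05 was reached by 0 of the 15, beside 239 of all probe sets (1.66%), and a plain unpaired t-test also called 0 probe sets, with 258 at an unadjusted p below 0.05.

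PYGM, the muscle glycogen phosphorylase, had intensities of 11165 to 17892 with a median of 14912 in high IMF bulls, against 11823 to 17884 with a median of 14811 in low IMF bulls. The ranges nearly coincided, and 5 of 10 high IMF bulls lay above the low IMF median. The difference was -0.02 log2 units (SE 0.12, 95% confidence interval -0.27 to 0.23). PGM1, the phosphoglucomutase that follows, had 6270 to 8901 with a median of 8020 in high IMF bulls and 6932 to 9534 with a median of 8388 in low IMF bulls by its brighter probe set. Only 2 of 10 high IMF bulls exceeded the low IMF median there, with a difference of -0.08 (SE 0.09). The dimmer probe set pointed the other way, at 0.06 (SE 0.09), with 6 of 10 high IMF bulls above the low IMF median.

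PFKM, the phosphofructokinase of muscle, had 11877 to 14714 with a median of 12885 in high IMF bulls, against 11977 to 14983 with a median of 13468 in low IMF bulls, by its brightest probe set. From the brightest to the dimmest, its 3 probe sets differed by -0.05, -0.06 and -0.02 log2 units, and in each of them 3 or 4 of 10 high IMF bulls exceeded the low IMF median. ALDOA, the muscle aldolase, spanned 13656 to 14712 in high IMF bulls and 13649 to 14602 in low IMF bulls, the narrowest range of the genes measured here. Its difference was -0.01 (SE 0.06).

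The lower part of the pathway also overlapped between the groups. GAPDH had 15414 to 17017 with a median of 16441 in high IMF bulls, against 15580 to 16994 with a median of 16093 in low IMF bulls, a difference of 0.01 (SE 0.06). PGAM2, the phosphoglycerate mutase of muscle, had 11837 to 15846 with a median of 14178 in high IMF bulls and 11990 to 15894 with a median of 14266 in low IMF bulls, with a difference of 0.00 (SE 0.08). ENO3, the muscle enolase, had 14490 to 16132 with a median of 15308 in high IMF bulls and 14476 to 15709 with a median of 14990 in low IMF bulls. The ENO3 difference was 0.02 (SE 0.06), and 7 of 10 high IMF bulls exceeded the low IMF median.

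PKM, the pyruvate kinase that makes pyruvate and ATP, was the least precise of the 15 probe sets in this comparison. It had 1078 to 3320 with a median of 2174 in high IMF bulls, against 994 to 3701 with a median of 2111 in low IMF bulls. Both groups held a low and a high cluster, which were the title series. The difference was -0.04 log2 units with an interval of -0.71 to 0.63, which narrowed to -0.19 to 0.12 once the title series was a covariate.

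For lactate dehydrogenase, the brightest LDHA probe set had 13555 to 17886 with a median of 16126 in high IMF bulls and 14600 to 18107 with a median of 16081 in low IMF bulls. It differed by -0.01 (SE 0.08). The dimmest had 106 to 454 with a median of 226 in high IMF bulls and 153 to 374 with a median of 240 in low IMF bulls. Its difference of -0.13 had an interval of -0.63 to 0.36. It became 0.13 without high IMF replicates 6 and 9, the bulls with the lowest median signal, which also gave its 2 lowest values. Leaving them out left 3 high and 5 low IMF S bulls, and with the title series as a covariate the value was 0.062. LDHB had 2859 to 5426 with a median of 4488 in high IMF bulls and 2906 to 5637 with a median of 4634 in low IMF bulls, a difference of -0.05 (SE 0.13, interval -0.33 to 0.22). The difference between the brightest LDHA probe set and LDHB was taken within an array, which cancels only a shift common to all its probe sets. It was 1.86 ± 0.25 log2 units in high IMF bulls and 1.83 ± 0.28 in low IMF bulls (SD, n = 10 each). High minus low IMF was 0.04 for this value, 0.12 with the LDHA probe set second in brightness and -0.08 with the dimmest.

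With the title series as a covariate, intervals were narrower for all 15 probe sets and still all included 0. ALDOA was then bounded at -0.10 to 0.09, GAPDH at -0.09 to 0.11, PGAM2 at -0.11 to 0.11, ENO3 at -0.08 to 0.12, the brightest LDHA probe set at -0.11 to 0.08 and PYGM at -0.13 to 0.10 log2 units. The widest was the dimmest LDHA probe set, at -0.51 to 0.24. In this fit 0 of 15 were called, beside 0.0% of all probe sets, and 0 of 15 had an unadjusted p below 0.05, beside 1057 of all probe sets (7.34%). These misses do not show that the enzymes were equal in the groups, only how large a difference the intervals still allow.

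Within the title series the differences between high and low IMF bulls were set side by side. Among S bulls they ran from -0.26 for the dimmest LDHA probe set to 0.08 for a PGM1 probe set, and among the other bulls from -0.07 for LDHB to 0.18 for the LDHA probe set second in brightness. The interaction of IMF and title series was called for 0 of 15, beside 0.0% of all probe sets, and 0 of 15 had an unadjusted p below 0.05, beside 769 of all probe sets (5.34%). Slow fibre markers, whose part was not tested, had a median difference of -0.14 between high and low IMF bulls with 0 of 10 above 0. Their summed intensity was 69374 to 104888 in high IMF bulls and 85140 to 106653 in low IMF bulls, and 0 of the 10 were called. Fast fibre markers had a median difference of -0.01 with 3 of 8 above 0, and their summed intensity was 99238 to 105234 in high IMF bulls and 98951 to 105051 in low IMF bulls. Adipocyte markers had a median difference of 1.65 with 0 of 5 called, and sums of 1647 to 22127 in high IMF bulls and 1146 to 9528 in low IMF bulls.

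**Figure D2:**
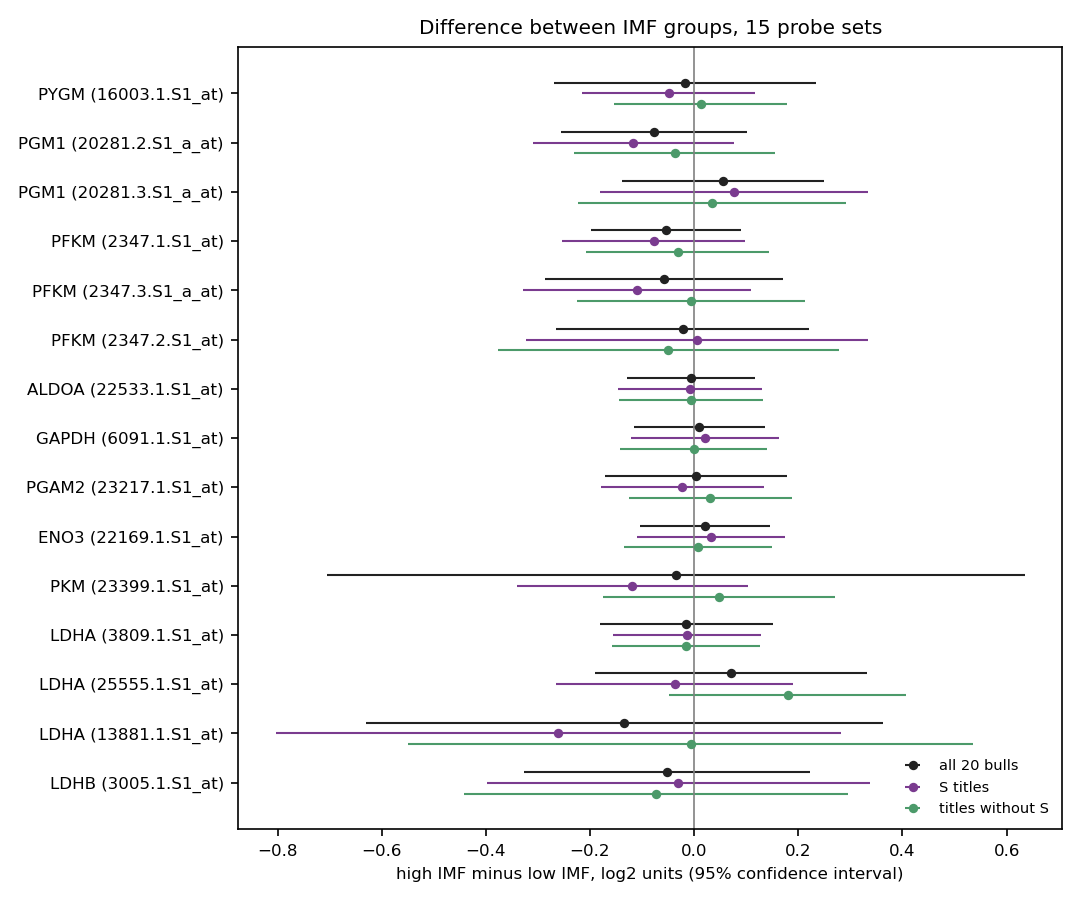
High IMF minus low IMF in log2 units with 95% confidence intervals (x axis) for the 15 probe sets (rows), over all 20 bulls (black), among 10 S bulls (purple) and among the other 10 bulls (green). Every interval includes 0; the widest over all bulls is that of PKM, -0.71 to 0.63, whose values split by title series.

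Between the title series several of these enzymes differed. PKM, PYGM and PGAM2, the second PFKM probe set in brightness, the brighter PGM1 probe set and 1 LDHA probe set were higher in S bulls, while the other 2 LDHA probe sets were lower. ALDOA, GAPDH, ENO3 and LDHB did not pass the test. In limma with IMF as a covariate, 8 of 15 probe sets were called at an adjusted p below 0.05, 6 higher and 2 lower in S bulls. The background was larger: 68.3% of all 14409 probe sets were called, 33.4% higher and 34.8% lower in S bulls. The 53.3% called among the 15 is thus no result about the pathway. With arrays centred on their medians 8 of 15 were called again, beside 69.6% of all probe sets, and the median of all tested probe sets was 0.06 log2 units, against -0.0025 on the deposited scale.

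PKM showed the widest gap, by its only probe set. Its intensity was 2824 to 3701 with a median of 3089 in S bulls, against 994 to 1524 with a median of 1132 in the other bulls. The lowest S bull was well above the highest of the others, in both IMF groups. The difference was 1.44 log2 units (SE 0.08, adjusted p = 1.17e-11 by limma), or 2.72-fold.

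PYGM followed. It had 15992 to 17892 with a median of 16896 in S bulls and 11165 to 13833 with a median of 12354 in the other bulls, without overlap. The difference was 0.47 (SE 0.06, adjusted p = 3.65e-07 by limma), or 1.39-fold. PGAM2 had 14330 to 15894 with a median of 15501 in S bulls, against 11837 to 14026 with a median of 12817 in the other bulls, also without overlap, and differed by 0.25 (SE 0.05, adjusted p = 2.66e-04 by limma).

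PGM1 and PFKM were called by 1 probe set each. The brighter PGM1 probe set had 7570 to 9534 with a median of 8643 in S bulls and 6270 to 8461 with a median of 7372 in the other bulls. These ranges overlapped, the difference was 0.20 (SE 0.06, adjusted p = 9.38e-03 by limma), and the call was lost without 4 arrays of high albumin signal (0.18, adjusted p = 0.0595 by limma). Albumin is a liver transcript, and its signal exceeded 2000 on 3 S arrays and 1 other array. The second PFKM probe set had 8167 to 9812 with a median of 8772 in S bulls and 5880 to 8645 with a median of 6905 in the other bulls, a difference of 0.34 (SE 0.07, adjusted p = 3.48e-04 by limma). The other PFKM probe sets did not pass the test. The brightest differed by -0.04 (SE 0.06), or 0.02 on centred arrays, and the dimmest by -0.13 (SE 0.11).

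**Figure D3:**
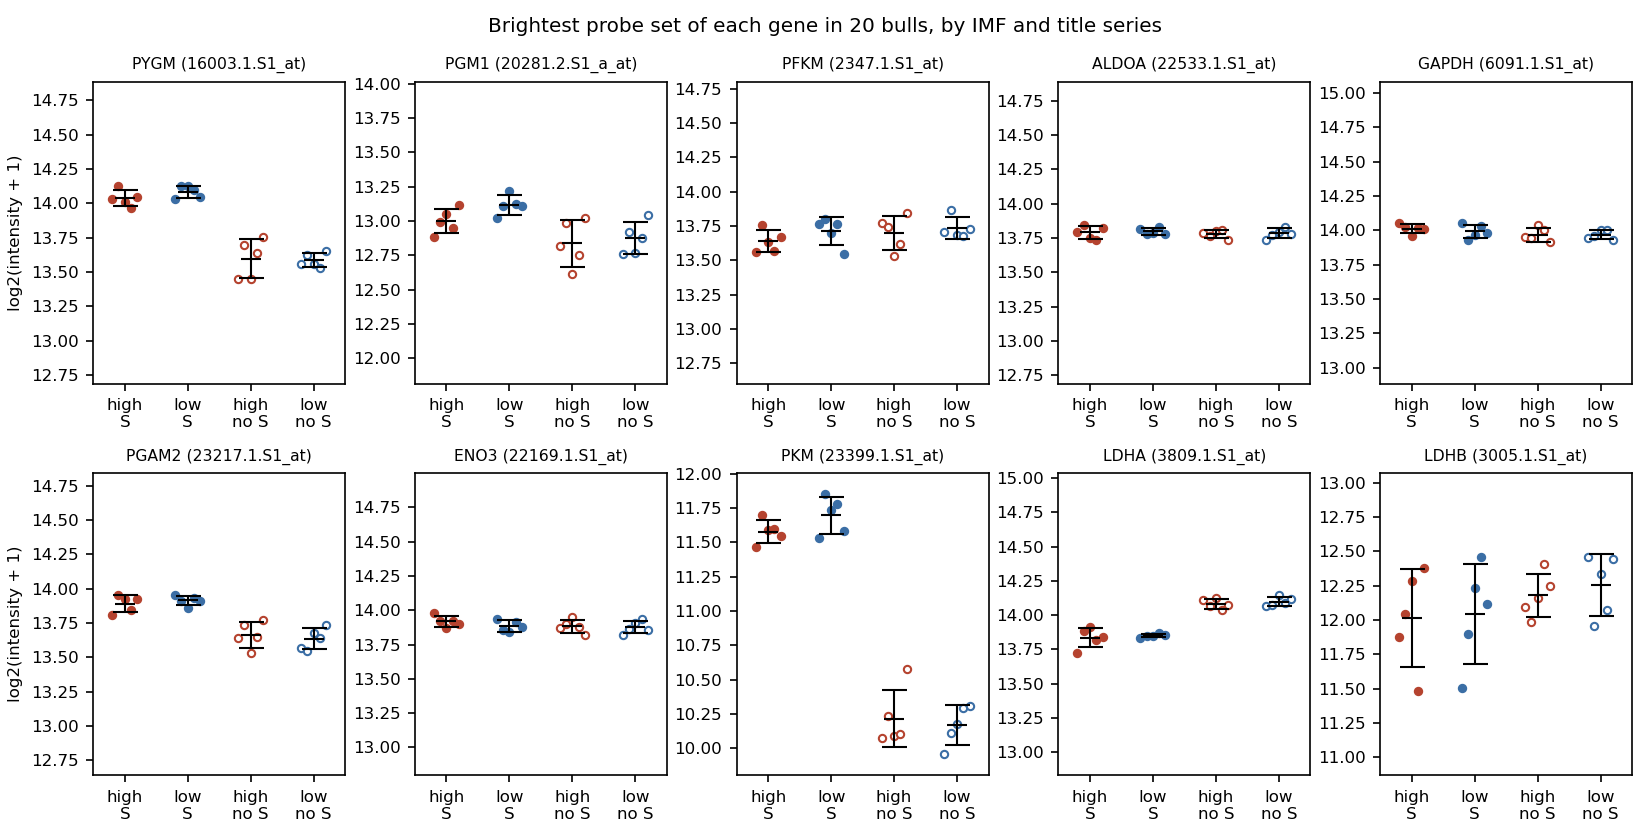
Log2(intensity + 1) of the brightest probe set of each of the 10 genes (y axes, each spanning the same width) in high IMF (red) and low IMF (blue) bulls with S titles (filled) and other titles (open), 5 bulls a column. Black bars give mean and SD; PKM, PYGM and PGAM2 lie higher and LDHA lower in every S bull than in any other bull, while ALDOA, GAPDH and ENO3 form a narrow band.

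LDHA pointed both ways, depending on the probe set. The brightest had 13555 to 15456 with a median of 14743 in S bulls and 16796 to 18107 with a median of 17314 in the other bulls, without overlap, and differed by -0.25 log2 units (SE 0.05, adjusted p = 1.24e-04 by limma). The second in brightness had 1241 to 1723 with a median of 1479 in S bulls and 840 to 1296 with a median of 1107 in the other bulls, and was higher by 0.42 (SE 0.08, adjusted p = 8.82e-05 by limma). The dimmest had 106 to 258 with a median of 209 in S bulls and 180 to 454 with a median of 322 in the other bulls, a difference of -0.72 (SE 0.18, adjusted p = 1.54e-03 by limma). The direction of LDHA between the title series is therefore unsettled, and the probes that each set uses were not examined. Such disagreement was not particular to LDHA: of 888 genes with at least 2 called probe sets, 143 (16.1%) had calls in both directions.

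**Figure D4:**
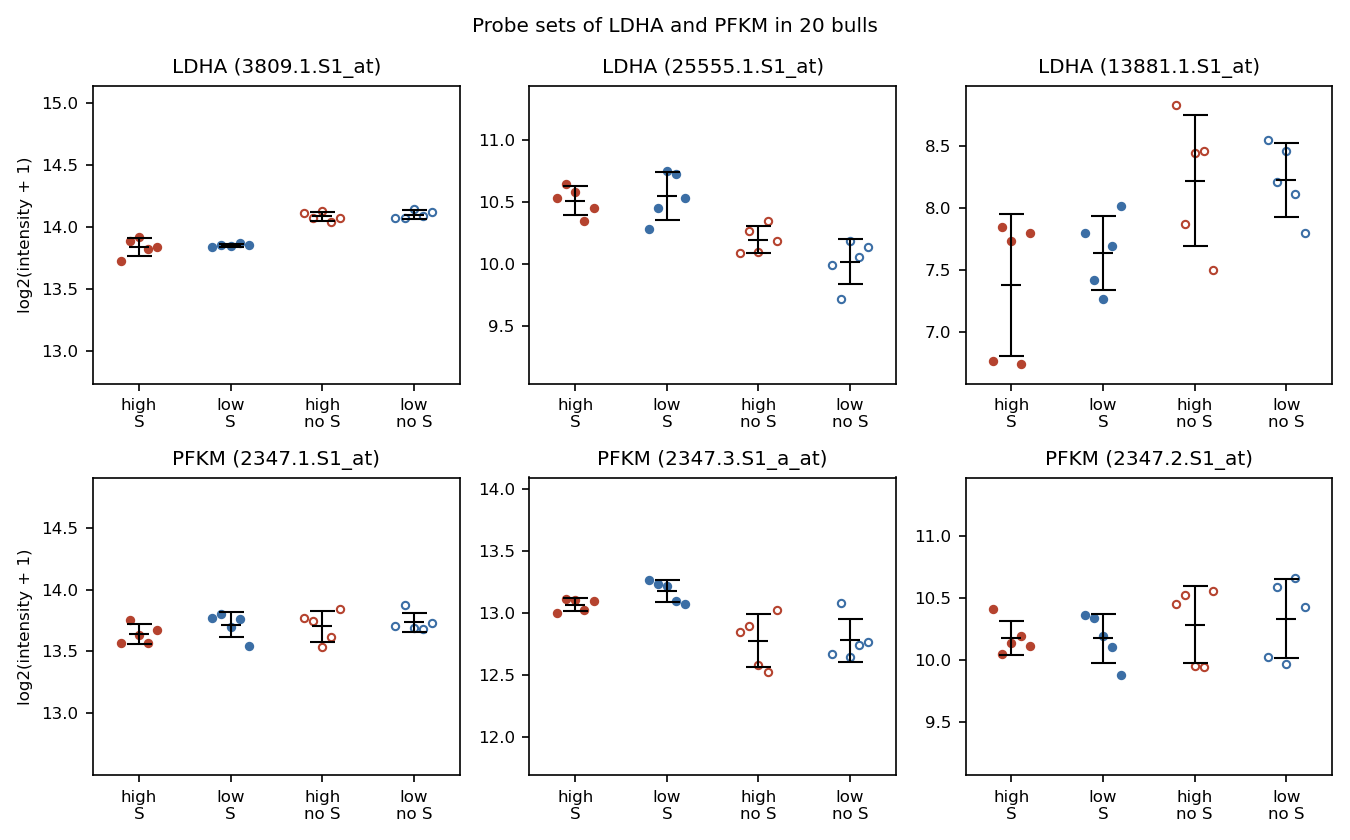
Log2(intensity + 1) of the 3 probe sets of LDHA (top) and of PFKM (bottom), ordered from the brightest, in 20 bulls (colours and columns by IMF and title series, bars for mean and SD of 5 bulls), with probe set identifiers above the panels. LDHA is lower in S bulls in the left and right panels and higher in the middle one; PFKM is higher in S bulls in the middle panel only.

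LDHB had 2859 to 5637 with a median of 4330 in S bulls and 3978 to 5627 with a median of 4722 in the other bulls. The difference of -0.19 (SE 0.12) did not pass the test (adjusted p = 0.179 by limma). Of the slow fibre markers, 0 of 10 were called higher and 5 of 10 called lower in S bulls. Their median difference was -0.10, with summed intensities of 69374 to 102834 in S bulls and 93486 to 106653 in the other bulls. Of the fast fibre markers, 3 of 8 were called higher and 1 called lower. Their median was -0.02, with sums of 99238 to 105234 in S bulls and 98951 to 101334 in the other bulls. In all, 5 of 10 slow and 4 of 8 fast fibre markers were called, beside 68.3% of all tested probe sets (33.4% higher, 34.8% lower). Their part in the values of LDHB and of the other enzymes was not tested. By the brightest LDHA probe set, the LDHA minus LDHB difference within an array was 1.81 ± 0.32 in S bulls and 1.87 ± 0.19 in the other bulls (SD, n = 10 each), and S bulls minus other bulls was -0.06. That value depended on the probe set: it was 0.61 with the second in brightness and -0.53 with the dimmest, so the data give the balance of LDHA and LDHB no single direction between the series.

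ALDOA, GAPDH and ENO3 did not pass the test between the title series. ALDOA differed by 0.01 (interval -0.08 to 0.11), GAPDH by 0.03 (interval -0.07 to 0.13) and ENO3 by 0.02 (interval -0.08 to 0.12). GAPDH passed the threshold only after quantile normalization, at 0.11 (adjusted p = 0.0486 by limma). The dimmer PGM1 probe set differed by 0.08 (SE 0.09).

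Values that did not overlap between the series were found for 4 of the 15 probe sets (26.7%), those of PYGM, PGAM2 and PKM and the brightest of LDHA, beside 19.6% of all probe sets. On centred arrays the number was also 4, with the second LDHA probe set in place of the brightest LDHA probe set. Over all probe sets, 53.0% of the top 100 by brightness were called.

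**Figure D5:**
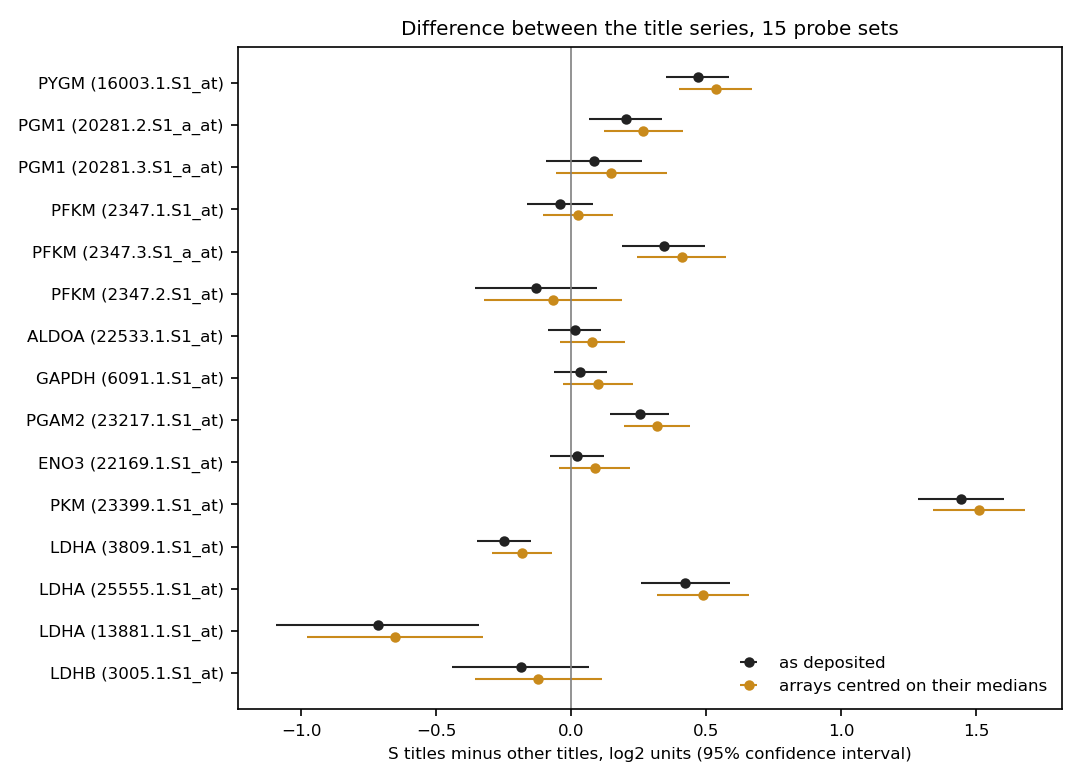
S titles minus other titles in log2 units with 95% confidence intervals (x axis) for the 15 probe sets (rows), on values as deposited (black) and on arrays centred on their medians (orange). PKM stands at 1.44, PYGM at 0.47 and the dimmest LDHA probe set at -0.72, and centring shifted each difference upward.

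The rest of the pathway was read from a list of 61 further genes of glycolysis, glycogen, lactate and pyruvate handling, 46 of them on the array by symbol and 38 above the filter, each by its brightest probe set. Between high and low IMF bulls 0 of 38 were called and 0 had an unadjusted p below 0.05, with a median of -0.03. The smallest p-values belonged to the kinase and phosphatase enzymes that set fructose 2,6-bisphosphate, PFKFB2 at -0.26 (SE 0.16), PFKFB4 at -0.14 (SE 0.12) and PFKFB1 at 0.15 (SE 0.14), and to the muscle fructose bisphosphatase FBP2 at 0.11 (SE 0.09).

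Between the title series 26 of 38 passed the test (68.4%), 17 higher and 9 lower in S bulls, beside 70.3% of all 7016 genes tested in the same way. The median was 0.23, against 0.11 over those genes, and a share so near the background is no result about the list. Among the glycolytic enzymes of this list, GPI at 0.35, TPI1 at 0.39, HK1 at 0.39, PFKL at 0.88, PFKP at 0.56, ALDOC at 0.26, PGAM1 at 0.44 and ENO1 at 0.45 were higher in S bulls, and PGK1, at -0.20, was lower. PFKL, the liver form of phosphofructokinase, had intensities of 244 to 358 in S bulls and 131 to 223 in the other bulls. PFKP and ALDOC were dim, near the lowest mean intensity tested, 41, and overlapped between the series. PFKP had 42 to 65 in S bulls and 25 to 51 in the other bulls, and ALDOC 37 to 68 and 33 to 60. PFKFB4 was higher at 0.26.

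Glycogen genes went both ways. GAA, which degrades glycogen in lysosomes, was higher in S bulls at 0.90 (SE 0.09), with intensities of 237 to 375 in S bulls and 155 to 216 in the other bulls. PHKG2, a catalytic subunit of phosphorylase kinase, was higher at 0.73 and PYGL, the liver phosphorylase, at 0.47. Both were dim. PHKG2 had 82 to 120 in S bulls and 48 to 77 in the other bulls, and PYGL 44 to 98 and 33 to 80, with overlap. PHKG1, also on the list, was not on the array by symbol. UGP2, which makes the UDP-glucose used for glycogen synthesis, was lower at -0.91 (SE 0.10), with 2575 to 3574 in S bulls and 4245 to 8777 in the other bulls. GBE1, the branching enzyme, was lower at -0.70, and GYG1, the glycogenin that primes the glycogen particle, at -0.15, a call that was lost on centred arrays (adjusted p = 0.214 by limma).

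Transport and the fate of pyruvate were also divided. The insulin-responsive glucose transporter SLC2A4 was higher in S bulls at 1.09, the lactate exporter SLC16A3 at 0.64, and LDHD, which acts on D-lactate, at 0.41, although another probe set of LDHD differed by -0.06. The lactate carrier SLC16A1 was lower at -0.86. The pyruvate dehydrogenase subunits PDHA1 and PDHB were lower at -0.76 and -0.60. Of the kinases that inhibit this complex, PDK2 was higher at 0.78 (SE 0.07) and PDK4 lower at -2.01 (SE 0.32). PDK2 had 547 to 682 in S bulls and 310 to 437 in the other bulls, and PDK4 had 494 to 3884 in S bulls and 4436 to 9437 in the other bulls, both without overlap. GPD1, which links glycolysis to glycerol phosphate, was higher at 0.28, and the hypoxia factor HIF1A lower at -0.67.

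The enzymes were then compared with one another among bulls of the same title series, since pooling both series would let the gap between them set the correlation. Of 90 correlations, 45 pairs of genes in each of the series, 1 passed correction, that of GAPDH with ENO3 in S bulls (Pearson's r = 0.91, Spearman's rho = 0.92, n = 10, permutation p adjusted over 90 relations 0.0189 and 0.0459). Without the 2 bulls farthest from the median of GAPDH, r was 0.95. In the other bulls the same pair had r = 0.82 and rho = 0.79 (n = 10), and r = 0.70 without the 2 farthest bulls. Its adjusted permutation p there was 0.0902 for r and 0.153 for rho. Both probe sets rank among the brightest by mean intensity, and such a shared position was not tested as a source. All these correlations are on the deposited scale, and r depended on the scaling. On centred arrays, where no p was computed, GAPDH with ENO3 had r = 0.99 in S bulls and 0.94 in the other bulls. In S bulls PGAM2 with ENO3 moved from -0.22 to 0.99 and PGM1 with ENO3 from -0.82 to 0.39. PYGM with LDHB moved the other way, from 0.44 to 0.05. All genes on an array share its centring, whose part was not tested.

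Probe sets of the same gene were set against each other in the same way. The brightest and the second PFKM probe set correlated at r = 0.77 in S bulls and r = 0.92 in the other bulls (n = 10 each, rho 0.81 and 0.94, permutation p adjusted over 14 relations 0.0492 and 0.00182), and at 0.70 and 0.94 without the 2 farthest bulls. Of the 3 LDHA pairs, the brightest with the dimmest probe set reached r = 0.70 in S bulls (rho 0.54, permutation p adjusted over 14 relations 0.0492 for r and 0.245 for rho), but 0.16 without the 2 farthest bulls. The 2 PGM1 probe sets correlated at -0.58 in S bulls and 0.73 in the other bulls (rho -0.39 and 0.72). Their adjusted permutation p was 0.157 and 0.0492 for r, and 0.461 and 0.0838 for rho, so in the other bulls the pair passed by r alone. LDHB correlated with the mean of the slow fibre markers at r = 0.54 in S bulls and 0.56 in the other bulls (rho 0.61 and 0.65), and at 0.32 and 0.59 without the 2 farthest bulls. With the mean of the fast fibre markers r was -0.24 in S bulls and -0.41 in the other bulls (rho -0.36 and -0.53), and -0.84 and -0.80 without the 2 farthest bulls. None of these 4 relations passed correction, with an adjusted permutation p of 0.209 for r in both series for the slow markers, and 0.503 in S bulls and 0.305 in the other bulls for the fast markers. The same p for rho was 0.136 in both series for the slow markers, and 0.313 and 0.165 for the fast markers.

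Among 8946 probe sets with 1 symbol, on centred arrays, the genes with the highest correlation over the 20 bulls to the mean of the pathway without LDHB were VPS28, USP5, ACTN3, NAPA and RTN2. Within S bulls their r was 0.79 to 0.93, and within the other bulls 0.78 to 0.85. All genes on an array share its centring, so the same genes were also correlated on the deposited scale, a comparison added after values had been seen. There r was -0.12 for USP5, -0.02 for NAPA, 0.0022 for RTN2 and 0.27 for VPS28 within S bulls, and 0.60 to 0.82 for these 4 within the other bulls. In S bulls the r of these 4 genes was thus lower on the deposited scale than on centred arrays. ACTN3, the alpha-actinin of fast fibres and a member of the fast fibre list, kept 0.81 in S bulls and 0.66 in the other bulls on the deposited scale, against 0.93 and 0.83 on centred arrays. Without the 2 dim arrays, high IMF replicates 6 and 9, r over the remaining 8 S bulls was 0.59 to 0.95 for the 5 genes on centred arrays and 0.28 to 0.75 on the deposited scale.

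The genes most like LDHB were PCCB, EED, RASL12, MPC1 and POLR1H, with r of 0.72 to 0.82 within S bulls and 0.39 to 0.69 within the other bulls. On the deposited scale r was 0.78 to 0.85 within S bulls and 0.39 to 0.71 within the other bulls. Without the 2 dim arrays it was 0.70 to 0.76 in S bulls on either scale. These values are descriptions, since the genes were picked by their r pooled over both title series.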

How the data were processed

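Muscle RNA of 20 bulls was measured on 1 array each. Extraction used TRI Reagent with a DNase step and an RNeasy cleanup, and the cRNA carried biotin, per the labels' protocols. Per the submitters' processing notes, GCOS 1.1.1 and Affymetrix Expression Console 1.1 were used, with the method of summary and scaling not given in the sources used here. Linear intensity values per probe set were deposited by the authors, and they were taken as log2(value + 1) with their scaling kept. The number of arrays limits the precision.

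After removal of 112 control probe sets, the 40% with the lowest mean were left out and 14409 were tested with limma 3.58.1 in R 4.3.3 (two-sided, Benjamini-Hochberg over all tested probe sets, threshold 0.05), a step also tested on simulated data. Fold changes are on this log2(value + 1) scale. The annotation gave 1 symbol for 13318 probe sets, several for 86 and none for 10724; 13283 matched the NCBI gene table, and 0 symbols changed. Correlations used 100000 permutations, two-sided, in scipy 1.17.1.

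The genes, lists and alternatives were chosen with earlier results of these data known. All probe sets of the 10 genes are named; of the 61 further genes, those called in any comparison and the 4 with the smallest p for IMF and for title series; and the 5 genes most correlated with the pathway and with LDHB over 20 bulls, of which correlations within the title series are printed. Correlations among probe sets and among the 10 genes were chosen after values had been seen.

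Of the other marker lists, 2 of 5 liver, 2 of 2 red blood cell, 2 of 3 endothelium, 3 of 5 fibroblast, 3 of 3 macrophage, 5 of 5 adipocyte and 3 of 5 general muscle genes tested were called between the title series, and 0 between IMF groups. Of all probe sets, 68.3% were called between the title series. The calls were higher in S bulls, except for 1 fibroblast, 1 adipocyte and 1 general muscle gene. Median differences between the series, in the same order of lists, were 0.51, 0.89, 0.34, 0.14, 1.12, 1.585 and 0.06 log2 units. The part of these cell types in the results was not tested. Alternatives were centred arrays, quantile normalization, a pseudocount of 16, no filter, array weights, a covariate added or dropped, an unpaired t-test, and leaving out the 2 arrays with the lowest median signal or the 4 with an albumin signal over 2000. Promoter and protein sequences were not used here.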

Additional observations from a re-analysis of the deposited data

Results flagged for a closer look

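Single bulls stood apart in 3 of 90 groups of 5 or 10 bulls examined for the 15 probe sets, by the gap from the highest or lowest bull to its neighbour as a share of the group's range, against Dixon's critical value of 0.710 for 5. Chance alone marks about 1 in 20 groups, and 3 of 90 is below that share. The dimmer PGM1 probe set was lowest in low IMF replicate 10, an S bull, at an intensity of 2759, with a gap of 0.747 of the range. For PFKM, low IMF replicate 2, a bull without S, was highest by the brightest probe set at 14983, with a gap of 0.756 of the range, and by the second in brightness at 8645, with a gap of 0.715. These 2 probe sets belong to 1 gene and correlated among the bulls.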

How the results depend on the processing

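Counts of called probe sets kept within 1.5 times of the reported ones in all alternatives run, from 8848 to 12549 for the title series, the highest without the filter (24016 tested), and 0 for IMF and for the interaction. No paired analysis was possible because the labels pair no animals, although the series text names a paired test. None of the IMF differences that changed sign was called under any setting, and the cause was not tested. On centred arrays the IMF difference became 0.033 for ALDOA, 0.025 for the brightest LDHA probe set, 0.017 for the dimmest PFKM probe set, 0.0039 for PKM and 0.021 for PYGM. After quantile normalization it became 0.0096 for the brightest LDHA probe set and 0.0052 for PYGM. With array weights it became -0.0016 for GAPDH, 0.028 for PKM and 0.018 for PYGM. Without the 2 arrays of lowest median signal it became -0.0014 for GAPDH, 0.13 for the dimmest and 0.032 for the brightest LDHA probe set, 0.053 for LDHB and -0.0079 for PGAM2. Without the 4 arrays of high albumin signal it became 0.082 for the dimmest, -0.012 for the second and 0.061 for the brightest LDHA probe set, and -0.054 for PGAM2, while PKM moved to -0.39 and PYGM to -0.14 with no call. Leaving out these arrays unbalances the title series over IMF, with 2 high and 5 low IMF S bulls left without the 4 and 3 and 5 without the 2, and these fits hold no term for the series. With that term, added after values had been seen, PKM was 0.011 and PYGM -0.012 without the 4 arrays. The dimmest LDHA probe set was then -0.10, the second 0.11, the brightest -0.0028 and PGAM2 0.019, with signs as over all 20 bulls. Without the 2, PKM was -0.010, PYGM -0.0033, GAPDH 0.0018 and PGAM2 0.027, again with those signs. The dimmest LDHA probe set at 0.062, the brightest at 0.0033 and LDHB at 0.041 still had changed signs. PKM without the 4 arrays and ALDOA without the 2, at 0.00029, changed sign only with the term. In these fits 0 probe sets of the 15 were called. Between title series, the brightest PFKM probe set became 0.025 on centred arrays and 0.010 after quantile normalization. PGM1 lost its call without the 4 arrays (0.18, adjusted p = 0.0595 by limma), and GAPDH gained one after quantile normalization (0.11, adjusted p = 0.0486). Whether a ceiling of the signal limits the brightest probe sets was not tested, and no detection call was used for the dim ones.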
